A study of Mus musculus with 2 samples.

Results

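The cells described here are yolk sac cells with an intermediate load of embryonic haemoglobin RNA, 73 of 1634 barcodes kept from 2 mouse single-cell libraries. They were chosen by a measured value. A barcode was kept when it held at least 500 genes and at most 10% mitochondrial unique molecular identifiers (UMIs, counts of single RNA molecules), and it was a member when Hbb-y, Hbb-bh1 and Hba-x together made up at least 5% but under 20% of its UMIs. There were 16 members among 787 kept barcodes of the wild-type (WT) library and 57 among 847 of the Baf155 CKO library. The globin share and everything read from the same UMIs are therefore descriptions of these cells, and no test is given. One library was made per genotype, so no difference between genotypes has a replicate check. The intervals below cover counting error only, and cells of 1 library are not replicates.

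Both libraries came from yolk sacs of B6 mice, taken at E9.5 and at E10.5 (embryonic days) and mixed within a genotype, with as many embryos of the one stage as of the other. Stages can therefore not be told apart in either library. Baf155 is the protein of Smarcc1 and part of the core of BAF, a SWI/SNF-type remodeller that moves nucleosomes, and CKO stands in the labels as the genotype of the second library, whose title has KO. The sources used here do not name the Cre driver, the deleted exon or the number of embryos, and the pool of embryos makes each library 1 sample. Tissue was digested with 0.25% collagenase for 30 min, frozen in serum with DMSO, thawed, and sorted to remove dead cells and cells binding the red cell antibody Ter119, before 5-prime droplet sequencing. The sort removed the more mature red cells of both genotypes, so the number of members found depends on it. The labels speak of nuclei, while the protocol describes sorted live cells.

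The first red cells of the mouse embryo, the primitive erythroblasts, arise in the yolk sac and enter the circulation as dividing nucleated cells. Their haemoglobin is built from embryonic chains: Hba-x encodes the zeta chain on the alpha side, and Hbb-bh1 and Hbb-y encode beta-like chains that are used in that order as the cells mature. The transcription factors Gata1 and Klf1 bind GATA and CACCC elements in erythroid genes, and the erythropoietin receptor Epor carries the survival signal. A later wave from erythromyeloid progenitors makes definitive erythroblasts and megakaryocytes, and Car1 (carbonic anhydrase 1) is commonly read as a gene of the definitive lineage.

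The globin promoters are shown because the members were chosen by these genes and because some members carried Hbb-y RNA with hardly any Hba-x RNA. Each sequence is the 250 bases before the RefSeq start, from the GRCm38.p6 table, 5' to 3' on the strand of the gene. Hbb-y lies at chr7:103853208-103853457 on the minus strand and Hba-x at chr11:32276350-32276599 on the plus strand. Capitals mark every match, on either strand, to CACCC, GATA and CCAAT, so GATA on the opposite strand reads TATC.
Hbb-y: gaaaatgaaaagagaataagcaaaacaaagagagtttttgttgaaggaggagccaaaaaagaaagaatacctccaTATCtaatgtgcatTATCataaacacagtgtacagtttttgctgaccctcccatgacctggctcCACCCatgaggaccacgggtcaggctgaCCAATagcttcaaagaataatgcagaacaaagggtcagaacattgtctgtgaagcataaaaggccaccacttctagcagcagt
Hba-x: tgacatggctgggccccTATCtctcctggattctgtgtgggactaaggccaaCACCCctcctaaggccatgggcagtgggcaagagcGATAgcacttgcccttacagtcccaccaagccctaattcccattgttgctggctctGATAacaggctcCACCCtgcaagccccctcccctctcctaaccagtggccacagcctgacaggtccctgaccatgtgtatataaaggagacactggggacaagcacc
The Hbb-y window held 1 CACCC, 2 GATA and 1 CCAAT match, with CACCC beginning at -111 and CCAAT at -83 from the start. The Hba-x window held 2 CACCC matches, at -198 and -95, and 3 GATA matches. Of 32851 promoter windows of this length, 52.0% held CACCC, 53.6% GATA and 33.8% CCAAT on either strand, so these matches are common. Hbb-bh1 and Car1 were not printed.

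Members made up 2.03% of the kept WT barcodes (exact binomial 95% interval 1.17 to 3.28%) and 6.73% of the kept CKO barcodes (5.14 to 8.63%). Of the barcodes with at least 5% embryonic globin, members were 16 of 155 in WT, or 10.3% (6.02 to 16.2%), and 57 of 264 in CKO, or 21.6% (16.8 to 27.0%). Without 9 CKO members that carried markers of another lineage, described below, the CKO share was 48 of 264, or 18.2% (13.7 to 23.4%), and its interval overlapped that of WT. The 264 still held those 9 cells, and barcodes of 20% or more globin were not screened for such markers. This share is therefore a low estimate, and nothing is read from the overlap. The embryonic globin share of WT members ran from 10.1 to 19.7% with a median of 17.5%, and that of CKO members from 5.55 to 19.95% with a median of 15.7%. No WT barcode fell between 1 and 10%, whereas 13 CKO members lay between 5 and 10%. Just under the lower limit the highest barcode had 0.94% in WT and 4.47% in CKO. At the upper limit 4 WT and 8 CKO members had 19 to 20%, and 3 WT and 13 CKO barcodes outside it had 20 to 21%. The upper limit thus cut through a continuous range, while in WT the lower limit fell in a gap.

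**Figure D1:**
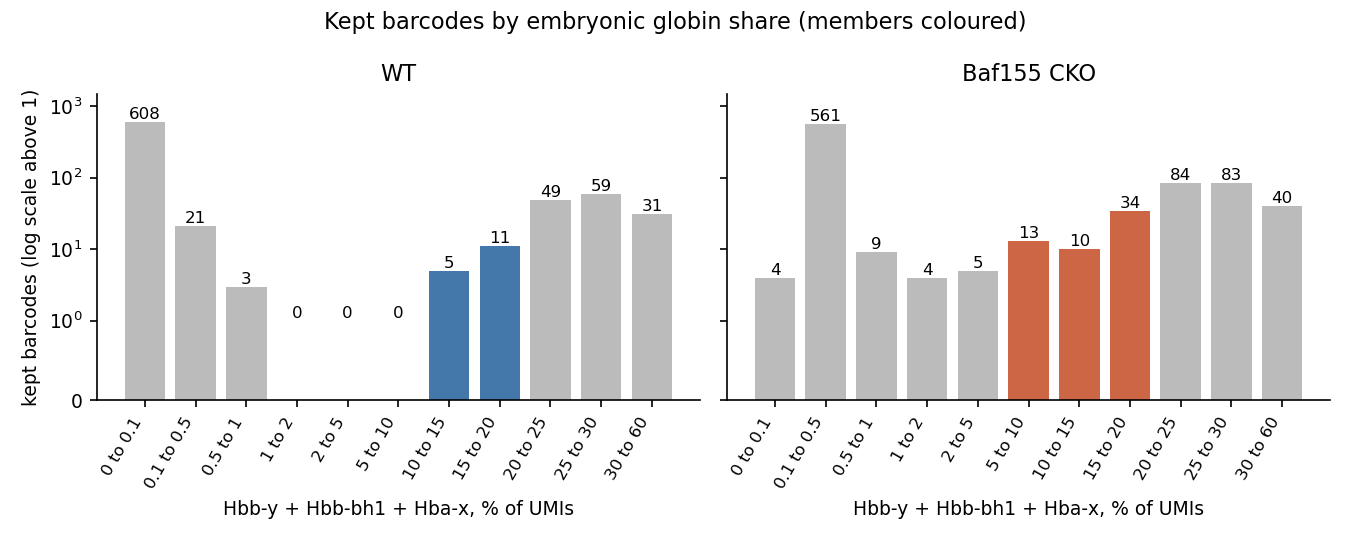
Kept barcodes (vertical axis, linear to 1 and log above) by the share of Hbb-y, Hbb-bh1 and Hba-x in their UMIs (horizontal axis, percent), WT left and Baf155 CKO right, members coloured and counts printed on the bars. The WT library has no barcode between 1 and 10%, and the CKO library has 13 between 5 and 10%.

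The members held 481923 UMIs in WT, with 7264 to 92154 per cell and a median of 22221.5, and 2331245 UMIs in CKO, with 7033 to 89107 and a median of 37290. All kept barcodes had medians of 28167 and 28320, and 1 barcode sequence was common to both libraries. Globin RNA in other cells differed too: kept barcodes under 5% globin had a median globin share of 0.0312% in WT and 0.219% in CKO. One WT member, at 92154 UMIs and 10.1% globin, was the only member that Scrublet called a doublet. It held 36 UMIs of erythromyeloid progenitor markers and 19.1% of all UMIs of the WT members.

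The erythroid label was checked against Klf1, Gata1 and Epor. Klf1 was seen in 15 of 16 WT members and 51 of 57 CKO members, Gata1 in 12 and 53, and Epor in 13 and 55. All 3 were seen together in 12 WT and 47 CKO members. The WT member without Klf1 had none of the 3 genes in 8668 UMIs. In the barcodes under 5% globin that had at most 1 Klf1 UMI, Gata1 was seen in 5.80% in WT and 14.3% in CKO, and Epor in 7.34 and 13.8%, at median depths of 26018 and 26297 UMIs. The members had 75.0 and 93.0% for Gata1 and 81.3 and 96.5% for Epor, and Klf1 itself was left out of this comparison because it defined the other barcodes.

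In CKO 9 members stood apart from that label, by a limit set after their values were seen. These 9 exceeded 1000 CPM of another lineage's markers on the non-globin scale (UMIs scaled to a common depth after globin genes are left out), which no WT member did. Of these, 7 were over that limit for megakaryocyte markers, the genes of platelet-forming cells. In these 7 cells Klf1 had 0 UMIs in 6 and 2 UMIs in the remaining cell, whereas Gata1 had 2 to 15 UMIs in each of the 7. Their megakaryocyte marker UMIs numbered 34 to 435, and each of them carried Itga2b (5 to 27 UMIs), Gp1bb (5 to 38) and Clec1b (17 to 50), which encode platelet receptors or their subunits. Pf4, platelet factor 4, had 106 and 316 UMIs in 2 of them and 0 or 1 in the other 5. Of the 7, 6 lay between 5 and 10% globin and 1 at 10.9%.

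The make-up of the globin RNA in these 7 cells differed from that of the other members. Hba-x made up 0.492 to 24.0% of their embryonic globin UMIs, with a median of 4.80%, against 21.9 to 47.2% and a median of 29.5% in the 48 CKO members under the other-lineage limit. Of the 7, 6 lay below the lowest of those 48 cells, and 1 lay within their range. One cell held 695 Hbb-y, 518 Hbb-bh1 and 6 Hba-x UMIs. Another held 1321, 266 and 9, and one more held 31, 1772 and 13. Summed, these cells had 0.0846 Hba-x UMIs per beta-like UMI (0.0790 to 0.0905), against 0.425 (0.422 to 0.428) in the 48. The 454 CKO barcodes under 5% globin with neither Klf1 nor the megakaryocyte mark had 0.278 (0.271 to 0.286). The 96 CKO barcodes under 5% globin that did carry the megakaryocyte mark had a summed ratio of 0.122 (0.115 to 0.130). Per barcode, Hba-x made up 1.07 to 41.0% of their embryonic globin UMIs, with a median of 19.8%, against a median of 21.7% in the 454. The low sum thus did not describe the median barcode of the 96. Alas2, the first enzyme of haem synthesis in red cells, stood at 76.8 non-globin CPM in the 7 cells and at 1005 in the CKO members of 10 to 20% globin under the limit. In 2 of the 7, both Xist and Y-linked UMIs were found. These 2 also held 18 and 46 smooth muscle marker UMIs, against at most 1 in each of the others. The cell with 46 had 30 endothelial marker UMIs as well, and it is the one given above with 1321, 266 and 9 globin UMIs. Scrublet called none of the 7, and the part of doublets in them was not tested further.

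**Figure D2:**
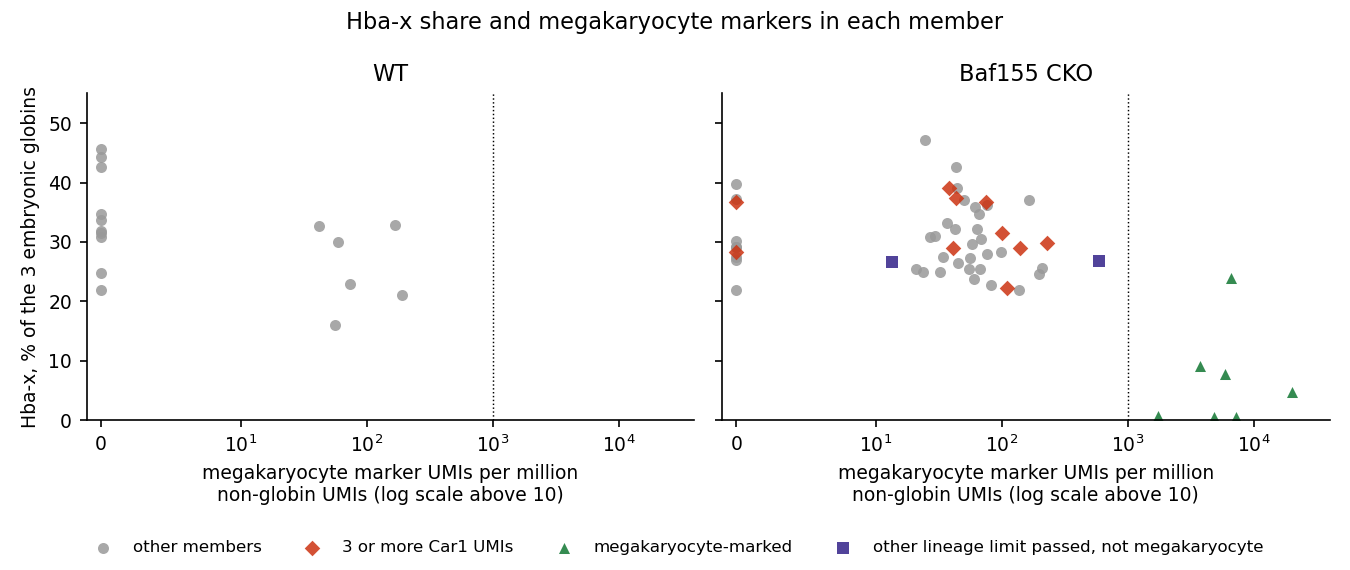
Hba-x as a percent of the 3 embryonic globins (vertical axis) against megakaryocyte markers in non-globin CPM (horizontal axis, linear to 10 and log above), 1 point per member, WT left and CKO right, with the limit of 1000 dotted. The 7 marked CKO cells have 0.492 to 24.0% Hba-x, and no WT member passes the limit.

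The remaining 2 of the 9 were single cases. One of 85788 UMIs held 1210 smooth muscle marker UMIs beside 4622 Hbb-y UMIs, 12 Klf1 UMIs, and both Xist and Y-linked UMIs. The other, of 21315 UMIs, had only 10 megakaryocyte marker UMIs. The 48 CKO members under the limit all had Klf1, and 44 had Klf1, Gata1 and Epor together. Results are given below with and without the 9. A stricter set, called the restricted members, was chosen after seeing the data and holds 15 WT and 41 CKO members of 10 to 20% globin with no other-lineage or doublet call.

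Beta-like chains showed an order along the globin share. In the 7 CKO members of 5 to 10% globin under the limit, Hbb-y made up 2.82 to 27.3% of the 2 embryonic beta-like RNAs, with a median of 14.5%, and Hbb-bh1 was the larger in all 7. In the 41 of 10 to 20% globin the Hbb-y share ran from 11.3 to 69.7% with a median of 56.3%, and Hbb-y was the larger in 28. The 16 WT members ran from 14.3 to 65.5% with a median of 59.2%, and Hbb-y was the larger in 10. In WT, 2 members of 11.4 and 11.9% globin lay within the range of those 7 CKO cells, with 75 Hbb-y against 451 Hbb-bh1 UMIs and 88 against 471. Globin-rich barcodes, those of 20% or more, had medians of 69.2% in WT and 66.1% in CKO, with Hbb-y the larger in 138 of 139 and 202 of 207. Cells with less globin thus carried relatively more of the earlier chain in both libraries. Since all 3 genes entered the rule, this is a description.

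**Figure D3:**
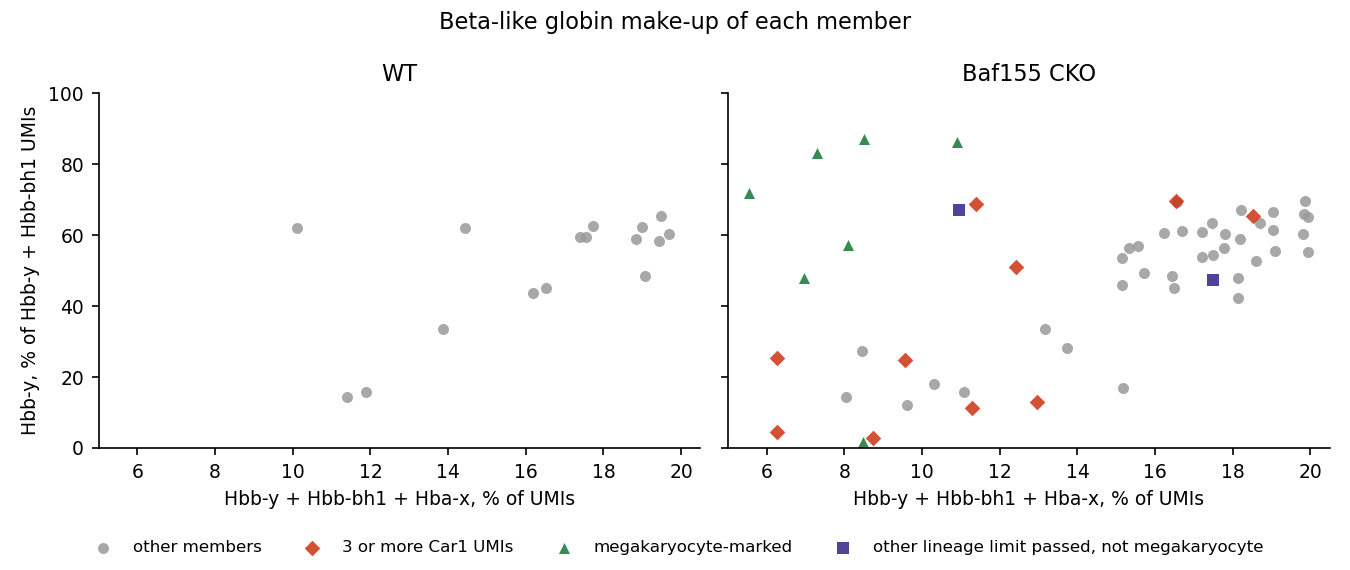
Hbb-y as a percent of Hbb-y plus Hbb-bh1 UMIs (vertical axis) against the embryonic globin share (horizontal axis, percent of UMIs), 1 point per member, WT left and CKO right. Unmarked CKO members below 10% globin all lie at or under 27.3%, most members above 15% lie between 50 and 70%, and 5 of the 7 megakaryocyte-marked cells lie above 50%.

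Adult chains were already present, at lower levels in the CKO members. Hba-a1 and Hba-a2, near-identical genes of the adult alpha chain that are best read as a sum, made up 3.32% of UMIs in WT members and 1.88% in CKO members, 1.76-fold lower (1.73 to 1.79). Without the 9 marked cells the CKO value was 1.998%. Hbb-bs and Hbb-bt, the adult beta genes and likewise similar in sequence, made up 0.243% in WT and 0.122% in CKO, 1.99-fold lower (1.85 to 2.13). Globin-rich barcodes differed in the same direction, 1.49-fold for the alpha pair and 1.94-fold for the beta pair. The split between the copies is uncertain, and 48.9% of the WT Hbb-bt UMIs and 33.5% of the CKO ones lay in 1 cell each. Of the 1171 UMIs of the beta pair in WT members, 1 cell held 306 of Hbb-bs. Another held 237 of Hbb-bs, and one more 224 of Hbb-bt. The difference of the beta pair in the members thus leaned on few WT cells, which its counting interval does not cover. As counted, Hba-a2 was 2.93-fold lower in CKO members (2.83 to 3.03), Hba-a1 1.48-fold, Hbb-bt 5.23-fold (4.57 to 5.98) and Hbb-bs 1.42-fold. Hbq1b, a theta-like alpha-family gene, had 38 WT and 225 CKO UMIs, a ratio of 1.22 (0.865 to 1.77). The embryonic genes, whose summed share the rule kept within limits, differed little: CKO over WT was 0.857 for Hbb-y, 1.01 for Hbb-bh1 and 0.951 for Hba-x.

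Car1 was seen in members of the CKO library only. None of 16 WT members had a Car1 UMI, and 0 of 16 cells allows a share of cells with a UMI of up to 18.8% by a floor of 3 counts (20.6% by the exact interval). In CKO 15 of 57 members had at least 1, or 26.3% (15.5 to 39.7%), with 520 UMIs in all. Car1 stood at 223 CPM (the usual depth-scaled UMI count) in CKO members, at least 35.8-fold higher than a floor of 3 UMIs over the WT members, with a lower limit of 29.0 by the exact interval of the ratio. WT had no member at 5 to 10% globin, and in the restricted members, with 154 of the Car1 UMIs, that lower limit was 9.01. All 15 positive cells were under the other-lineage limit, where they were 31.3% of 48 (18.7 to 46.3%), and none of the 7 megakaryocyte-marked cells had a Car1 UMI. When each cell was thinned to 6000 UMIs, 12 of 57 CKO members and 0 of 16 WT members remained positive. Beside these, Car1 was seen in 1.72% of the CKO barcodes under 5% globin with fewer than 2 Klf1 UMIs, against a median depth of 37290 UMIs in the CKO members and 26297 in those barcodes, and in 0.341% of those of WT.

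Of the 15 cells, 10 had 3 or more Car1 UMIs and held 515 of the 520. Their counts were 147, 124, 66, 57, 47, 29, 24, 10, 6 and 5, that is, 167 to 6111 CPM. The highest cell held 28.3% of all Car1 UMIs of the members. Their globin share ran from 6.25 to 18.5% with a median of 11.3%, and Hbb-bh1 exceeded Hbb-y in 6 of the 10. All 10 had Xist UMIs and no Y-linked UMIs, and 8 had no Smarcc1 UMI. Among all 48 CKO members under the other-lineage limit these counts were 44 and 37, so neither trait sets the 10 cells apart. Among CKO members under the other-lineage limit, the share with 3 or more Car1 UMIs was 4 of 7 at 5 to 10% globin, or 57.1% (18.4 to 90.1%). It was 6 of 41 at 10 to 20%, or 14.6% (5.57 to 29.2%). With the marked cells kept, the counts were 4 of 13 and 6 of 44. Of the globin-rich CKO barcodes, to which that limit was not applied, 9 of 207 had 3 or more, or 4.35% (2.01 to 8.09%), and below 5% globin 0 of 3 Klf1-positive and 0 of 580 other CKO barcodes did.

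In WT, Car1 lay outside the members. Of 46 WT barcodes with at least 2 Klf1 UMIs and under 5% globin, called Klf1-positive before globin, 27 had Car1, or 58.7% (43.2 to 73.0%), with 224 UMIs. Only 3 CKO barcodes met that definition and none had Car1. Of the globin-rich barcodes, 2 of 139 in WT and 14 of 207 in CKO were positive. Of the 46, 11 had 3 or more Car1 UMIs, and their other genes are given beside those of the 10 CKO members. On the non-globin scale Myb, a progenitor transcription factor, stood at 82.7 CPM in the 11 WT cells and 12.4 in the 10 CKO cells. Gata2 stood at 72.6 and 0, Bcl11a at 77.7 and 0, and Kit, the stem cell factor receptor, at 11.8 and 8.29. Alas2 stood at 8.44 and 709. The WT cells were chosen below 5% globin and the CKO cells above it, so genotype and globin share cannot be told apart in these values. Gene ratios between Car1-positive and Car1-negative members were not made, because neither library had 20 cells of each kind.

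**Figure D4:**
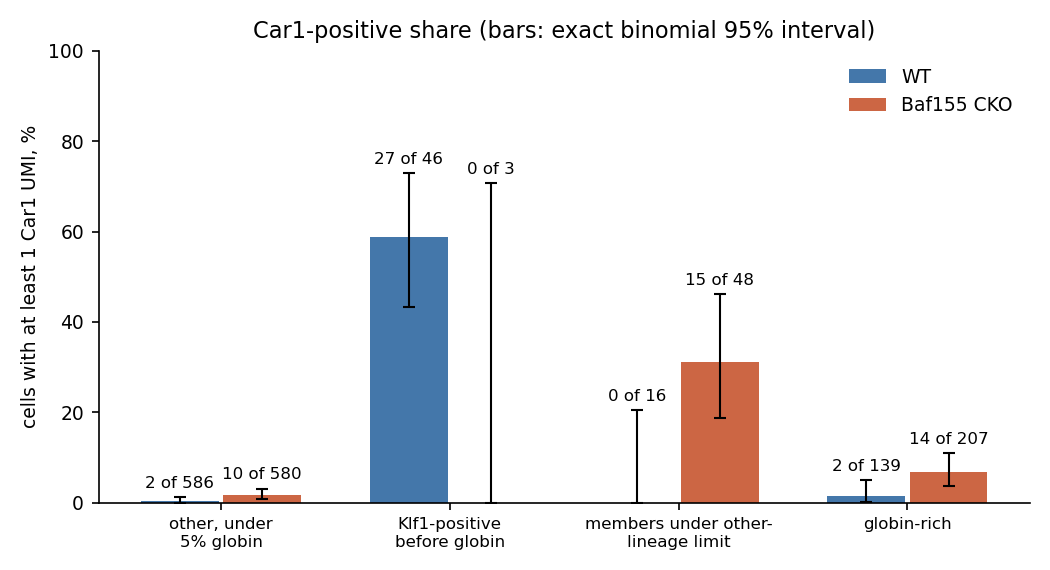
Share of cells with at least 1 Car1 UMI (vertical axis, percent) in 4 sets of barcodes of each library, with exact binomial 95% intervals and the counts above. Car1 is seen in 27 of 46 WT barcodes before globin and 0 of 16 WT members, and in 15 of 48 CKO members under the other-lineage limit.

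The targeted gene was checked in both libraries. Smarcc1 (chr9:110117708-110240178, GRCm38, plus strand, protein coding) had 41 UMIs in WT members, or 85.1 CPM, and 19 in CKO members, or 8.15 CPM. The level was 10.4-fold lower in CKO (5.92 to 19.04). UMIs of it were present in 10 WT and 12 CKO members. Globin-rich barcodes had a 7.15-fold lower level in CKO, and barcodes under 5% globin with neither Klf1 nor the megakaryocyte mark a 3.07-fold lower one. Whether the 5-prime reads fall in the deleted part is not known here. Of 13 BAF complex genes with at least 50 UMIs, Smarcc1 alone was past 2-fold, and the median log2 ratio was 0.27. Smarce1 (ratio 1.04), Smarcb1 (1.33), Actl6a (1.36) and Pbrm1, a PBAF subunit (0.670), were nearer to 1.

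Across the genome, 4211 genes had at least 50 UMIs over the members of both libraries. A CPM ratio of 2 or more in CKO was found for 407 of them, or 9.67%, and a ratio of 1/2 or less for 116, or 2.75%. The median log2 ratio was 0.02. In the restricted members the counts were 246 higher and 107 lower of 3408 genes, and 171 and 59 of these were also past 2-fold in all members. Without the 9 marked cells 238 were higher. The gene lists below were chosen with earlier results of these data known, and each count is to be read against those shares.

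Erythroid transcription factors were mostly at like or somewhat higher levels in CKO members. Of 16 measured, 3 were past 2-fold higher and none lower, with a median log2 ratio of 0.26. Klf1 had 110 UMIs in WT (228 CPM) and 624 in CKO (268 CPM), a ratio of 1.17 (0.956 to 1.45). Gata1 had 57 and 351, a ratio of 1.27 (0.960 to 1.72). Both intervals included 1. The 3 past the limit were Tal1, with Lmo2 part of the Gata1 complex (2.56, 1.67 to 4.11), Gfi1b, a repressor of the erythroid and megakaryocyte lineages (2.70, 1.71 to 4.49), and Nfe2 (2.001, 1.32 to 3.15). Among restricted members Tal1 had a ratio of 2.33 and Gfi1b of 2.01, but Nfe2 of 1.69, and Nfe2 stood at 328 non-globin CPM in the 7 megakaryocyte-marked cells. Lmo2 (1.59) and Lyl1 (1.98) were below the limit.

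In the erythropoietin pathway 3 of 13 listed genes were measured. Epor had 53 UMIs in WT members (110 CPM) and 403 in CKO (173 CPM), a ratio of 1.57 (1.18 to 2.13). Pim1, a kinase gene induced downstream of the receptor, was at 2.15 (1.60 to 2.96), and the anti-apoptotic gene Bcl2l1 at 2.40 (0.971 to 7.66) from 5 WT UMIs. For restricted members Pim1 was at 1.64 and Bcl2l1 at 1.44, so neither was past 2-fold there.

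Haem and iron genes did not pass the limit. None of 14 haem genes was past 2-fold, with a median log2 ratio of 0.36. Alad and Cpox, enzymes of the haem pathway, had ratios of 1.35 and 1.13, and the mitochondrial transporter gene Tmem14c one of 1.03. Of 9 iron genes none was past 2-fold in all members, and the median log2 ratio was 0.10. Fth1, ferritin heavy chain, was nearest the limit at 0.520 (0.498 to 0.542), with 6559 CPM in WT and 3407 in CKO, and it was at 0.497 in the restricted members. Ftl1, ferritin light chain, was at 0.962.

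Red cell membrane genes differed in both directions. Of 17, 3 were past 2-fold higher and 1 lower, with a median log2 ratio of 0.47. Rhag, the Rh-associated glycoprotein, had a ratio of 2.40 (1.54 to 3.95), Dmtn, the dematin gene, 2.50 (1.27 to 5.62), and Slc2a1, the glucose transporter GLUT1, 2.11 (1.55 to 2.93). Rhd, the Rh antigen gene, was 3.28-fold lower in CKO (2.16 to 4.93). Rhd UMIs were present in 14 WT and 24 CKO members. Rhag and Rhd products sit in 1 membrane complex, and their ratios lay on opposite sides of 1 also in the restricted members (2.58 for Rhag, 3.97-fold lower for Rhd) and in globin-rich barcodes (1.43, and 2.16-fold lower). Slc4a1, the band 3 anion exchanger, was at 1.85.

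Among late maturation genes 1 of 13 was past 2-fold higher and 1 lower, with a median log2 ratio of 0.02. Fam46c was at 2.42 (1.27 to 5.18). Bpgm, which makes the haemoglobin effector 2,3-bisphosphoglycerate, was at 0.448 (0.350 to 0.577) in all members and 0.545 in the restricted ones. Prdx2, an abundant red cell peroxidase, was at 0.792. Of the carbonic anhydrases, Car2, a further red cell enzyme, had 2345 CPM in WT and 2437 in CKO members, a ratio of 1.04 (0.975 to 1.11), beside the difference in Car1.

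Cell cycle genes were present in both libraries. Of 27 S phase genes 3 were past 2-fold higher and none lower (median log2 ratio 0.13). They were the DNA clamp Pcna (2.18, 1.57 to 3.11), the helicase subunit Mcm5 (2.32, 1.62 to 3.42) and Dscc1 (2.15, from 5 WT UMIs). Among the restricted members 7 of 26 were higher, with Mcm5 at 4.16 and Pcna at 3.35, and the median was 0.65. The WT doublet call, left out there, held 17 of the 33 Mcm5 UMIs of WT members. Of 29 G2 and mitosis genes 3 were higher and none lower (median 0.33): Cdk1 at 2.01, Top2a at 2.23 and Ccna2, cyclin A2, at 2.39. Of 9 measured p53 targets and cell cycle inhibitors 4 were higher, among them Btg2 (2.44) and Cdkn2d (7.03, 1.87 to 59.2, from 2 WT UMIs), while Bax was at 0.727. With restriction 1 of 6 was higher.

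Glycolysis and hypoxia genes had the largest share past the limit among the lists with more than 10 measured genes. Of 17, 6 (Pgk1, Slc2a3, Bnip3, Hk1, Pdk1 and Slc2a1) were past 2-fold higher and none lower, with a median log2 ratio of 0.86. Pgk1, phosphoglycerate kinase, had 15 UMIs in WT members (31.1 CPM) and 580 in CKO (249 CPM), a ratio of 7.99 (4.81 to 14.4). Bnip3, which encodes a mitochondrial protein and is induced by hypoxia, was at 4.49 (2.13 to 11.4). Slc2a3 was at 5.58 in all members and 2.23 in the restricted ones, and stood at 635 non-globin CPM in the megakaryocyte-marked cells. Gapdh was at 1.81, Aldoa at 1.48 and Ldha at 0.938. The difference in Pgk1 was not limited to the members: its ratio was 6.31 in globin-rich barcodes and 3.58 in barcodes under 5% globin with neither Klf1 nor the megakaryocyte mark. Among the restricted members 8 of 16 genes of this list were higher, with a median of 0.94.

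In the integrated stress response list 2 of 14 were past 2-fold higher and none lower, with a median log2 ratio of 0.65. Asns, asparagine synthetase, was at 2.38 (1.93 to 2.96) and the transcription factor Atf5 at 5.43 (2.06 to 20.3), while Atf4 was at 1.74 and Mthfd2 at 1.12. In globin-rich barcodes the median of the list was 0.02, with Asns at 1.35 and Atf5 at 1.79. The heat shock and immediate early list had 1 of 13 lower and none higher, with a median of -0.33. That gene was Jun (0.347, 0.242 to 0.503), and the WT doublet call held 43 of its 50 WT UMIs. Without that cell alone the median of the list was 0.22. In the restricted members the ratio of Jun was 0.967, and the list had a median of 0.11 with 2 of 11 genes higher. Of 18 Myc and ribosome biogenesis genes 1 was past 2-fold, Polr1b at 2.34. Ncl and Npm1, whose products sit in the nucleolus, were at 0.770 and 0.9797.

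Imprinted growth genes had 6 of 8 past 2-fold higher, and none of the 3 measured in the restricted members. H19 was at 2.01 (1.69 to 2.40) in all members, 1.40 in the restricted ones and 1.06 in globin-rich barcodes. The other 5 were past 2-fold higher in globin-rich barcodes too, from 3.13 for Igf2 to 11.5 for Dlk1, and the list had a median log2 ratio of 1.40 there over 10 genes. Mest was at 13.0 with 57.4% of its CKO UMIs in 1 cell. Dlk1 (9.30), Nnat (4.29), Igf2 (2.21) and Meg3 (0 WT UMIs) had at most 7 UMIs in WT members. Of 3 measured definitive and progenitor genes 2 were higher, Car1 and Itga2b (2.89), and Itga2b was at 0.491 in the restricted members. None of 3 interferon-induced genes passed the limit.

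**Figure D5:**
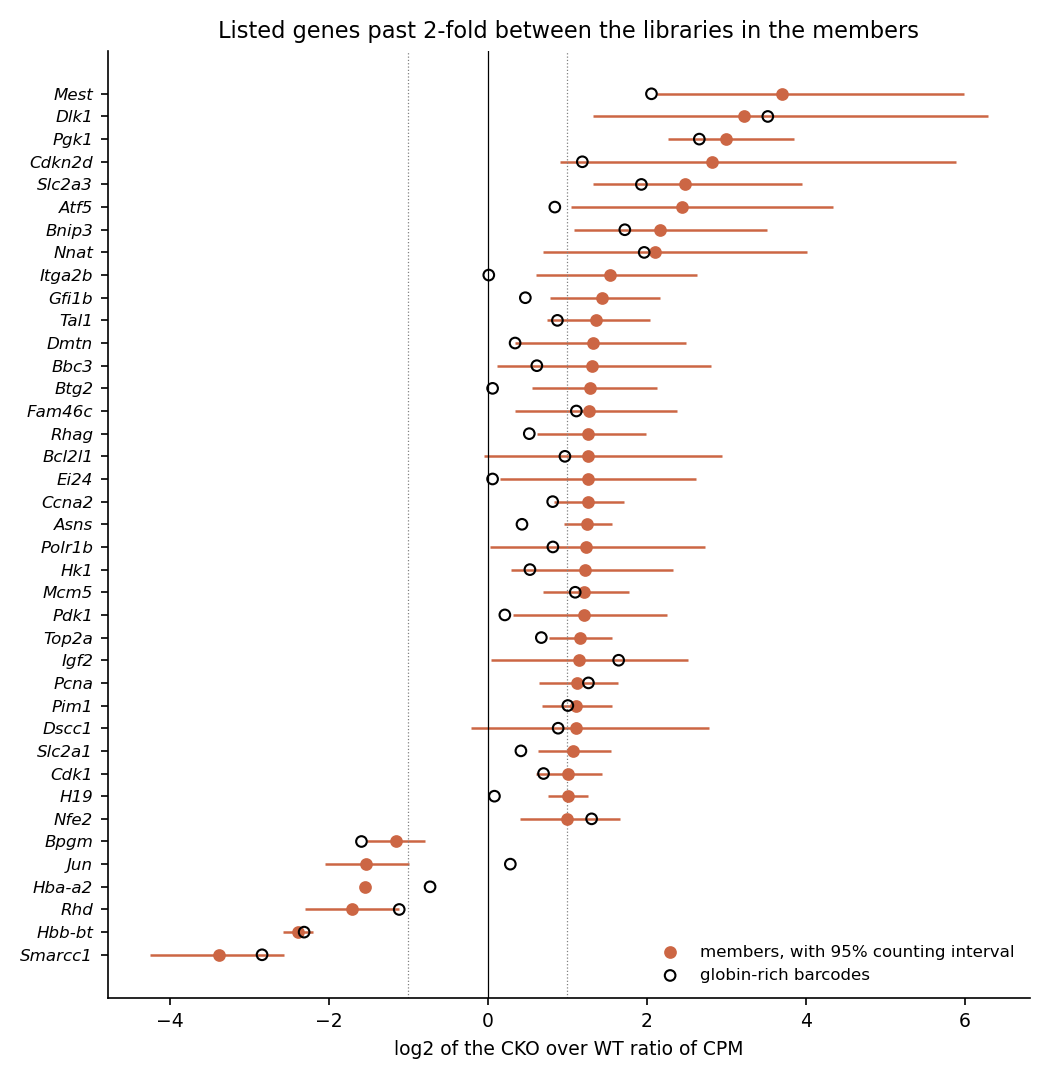
Log2 ratio of CPM, CKO over WT (horizontal axis), for the 39 listed genes past 2-fold in the members with UMIs in both libraries (filled, lines are 95% counting intervals) and for the same genes in globin-rich barcodes (open), with 2-fold dotted. Pgk1, Bnip3 and Hbb-bt lie on the same side in both sets past the dotted lines, whereas Jun, Itga2b and H19 are near 0 in globin-rich barcodes.

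The 10 highest ratios among well-covered genes came in part from the marked cells. Clec1b (227 CKO UMIs), Gp1bb (149), Myl9 (181), Acta2 (765), Pf4 (456), Tuba1a (238) and Mest (188) had 0 to 4 UMIs in WT members. The 48 unmarked CKO members held 7, 5, 6, 14, 29, 24 and 33 of these. Acta2, smooth muscle actin, had 98.0% of its CKO UMIs in 1 cell. The other 3 were seen in unmarked cells as well. Beside Car1, these were Btn1a1 (chr13:23456992-23465901), a butyrophilin gene with 123 UMIs in 34 of 57 CKO members and 0 in WT, at least 8.48-fold higher than the floor of 3 UMIs (lower limit by the exact interval 6.79, and 4.04 in the restricted members), and Tgfb1i1, which encodes a focal adhesion protein, with 147 UMIs in 27 CKO members, 47 of them in the 48 unmarked cells. In globin-rich barcodes the CKO over WT ratio was 11.9 for Btn1a1 and 5.55 for Tgfb1i1.

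The 10 lowest ratios belonged to genes seen in at least 13 of the 16 WT members. Fabp5, a fatty acid binding protein gene, had 139 UMIs in 13 of 16 WT members (288 CPM) and 73 in 27 of 57 CKO members (31.3 CPM), 9.21-fold lower in CKO (6.89 to 12.4). In globin-rich barcodes it was 11.2-fold lower, but in barcodes under 5% globin with neither Klf1 nor the megakaryocyte mark its CKO over WT ratio was 2.20. Gmpr, guanosine monophosphate reductase, was 6.61-fold lower (5.30 to 8.26) in members, 4.42-fold in globin-rich barcodes and 1.34-fold in those non-erythroid barcodes. The non-erythroid ratio of Rhd was 2.12, but its interval of 0.718 to 6.97, from 11 CKO and 6 WT UMIs, included 1. That of Hbb-bt was 2.57 (2.10 to 3.16), in barcodes where Hbb-y and Hbb-bh1 had ratios of 6.58 and 6.79. Hnrnpa0 (4.96-fold lower), Ppp4r2 (4.65), Ppp1r14b (4.13), Prpf4b (3.92), Ube2m (3.32) and Arglu1 (3.02) were also 2.12 to 3.67-fold lower in the non-erythroid barcodes, so their difference was not limited to the members. Those barcodes mix cell types. Over all kept barcodes, visceral endoderm markers stood at 1928 CPM in WT and 71.3 in CKO, and mesenchyme markers at 2215 and 2915. The part of the cell mix in the non-erythroid ratios given here was not tested.

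Members were then set beside the Klf1-positive barcodes before globin and the globin-rich barcodes, on the non-globin scale. These sets were placed in order by globin share only, and no WT barcode lay between 0.940 and 10.1% globin. Whether the Klf1-positive barcodes are an earlier stage of the members or another lineage was not tested. Against the 46 Klf1-positive WT barcodes before globin, 4.14% of 4448 genes were past 2-fold higher in the 16 WT members and 13.9% past 2-fold lower. With the doublet call left out, 4.68% of 4363 genes were past 2-fold higher and 17.9% lower. All 14 measured haem genes were then past 2-fold higher. Of 11 red cell membrane genes 9 were higher and 2 lower, and of 10 definitive and progenitor genes 1 was higher and 9 lower. Alas2 was at 792 CPM in members against 5.78 before globin. Myb, Gata2 and Bcl11a had no UMI in these 15 WT members, against 157, 163 and 143 UMIs before globin. Mcm5 was 4.03-fold lower. Klf1 itself was at 342 against 189, but the barcodes before globin were chosen by at least 2 Klf1 UMIs, so nothing is read from these 2 levels.

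Against globin-rich barcodes the members differed less. In WT 2.5% of 4927 genes were past 2-fold higher and 4.49% lower, and in CKO 2.9% of 6625 were higher and 0.725% lower. With the doublet call left out, 1.80% of 4877 genes were higher in WT and 5.82% lower. With the marked cells left out, 0.681% of 6459 were higher in CKO and 1.32% lower, so the larger count changed sides. The list counts below are of these smaller sets. Among 4851 genes measured in both libraries, with marked cells and the doublet call left out, 87 were past 2-fold higher in WT and 18 in CKO. These were 1.79% and 0.371% of all 4851. The 4 shared genes were 4.60% of the WT list, beside the 0.371%, and 22.2% of the CKO list, beside the 1.79%. Past 2-fold lower were 274 in WT and 34 in CKO, 5.65% and 0.701% of all 4851. The 13 shared genes were 4.74% of the WT list, beside the 0.701%, and 38.2% of the CKO list, beside the 5.65%. The late maturation list had median log2 ratios of -0.08 in WT and -0.19 in CKO, with 0 of 14 and 1 of 16 genes past 2-fold lower, and the haem list 0.03 and -0.26 with none past it. Of 18 red cell membrane genes 2 were past 2-fold lower in WT, and 1 lower and 1 higher in CKO. Alas2 was at 0.596 of the globin-rich level in WT and 0.688 in CKO, Slc4a1 at 0.541 and 0.673, and Tfrc, the transferrin receptor, at 0.502 and 0.678. Npm1 was higher in both, at 1.32 and 1.36. Klf1 (1.01 and 1.04) and Epor (0.939 and 0.932) were near the globin-rich level. The integrated stress response list differed between the libraries in this comparison. Of its 15 measured genes, 7 were past 2-fold lower in WT members and none of 15 in CKO members, with median log2 ratios of -0.95 and -0.19. Atf4 was at 0.495 in WT and 0.874 in CKO, and Ddit3 at 0.3396 and 0.748. The difference between these 2 values has no replicate and was not tested. Car1 was 13.4-fold higher (11.0 to 16.5) in the CKO members than in CKO globin-rich barcodes.

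The sex-linked RNA of the members was unevenly spread. Xist without Y-linked UMIs was found in 8 of 16 WT members (24.7 to 75.3%), and in 48 of 57 CKO members, or 84.2% (72.1 to 92.5%). Y-linked UMIs without Xist were found in 5 in each library. Globin-rich barcodes had Xist alone in 45.3% of WT and 60.4% of CKO (53.4 to 67.1%). Xist-expressing cells were thus the larger share of the CKO members, and the part of this imbalance in the ratios above was not tested beyond the values that follow. With the comparison limited to members with Xist alone (8 WT and 48 CKO), the log2 ratio of Pgk1, an X-linked gene, was 2.53 against 2.98 in all members, and that of H19 was 0.32 against 1.00. Smarcc1 stood at 5.58 CPM in the 48 Xist-only CKO members and at 37.0 (12.0 to 86.4) in the 5 Y-linked ones, with all 5 UMIs of the latter in 1 cell.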

How the data were processed

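Single-cell RNA of yolk sac cells was measured in 1 WT and 1 Baf155 CKO library. The authors deposited raw UMI counts, 1 matrix of genes by barcodes for each library, with no normalization. Per the submitters' processing notes, Cell Ranger, Seurat and GRCm38 were used; their versions are not given here. Totals were 24538853 UMIs over 815 WT barcodes and 27314411 over 865 CKO barcodes. Barcodes with under 500 genes or over 10% mitochondrial UMIs were left out (28 WT, 18 CKO).

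Counts were summed per library and cell set and scaled to CPM (Python 3.11.15, scipy 1.17.1). Intervals are at 95%: exact Poisson for levels, exact binomial for shares, conditional exact for ratios. They cover counting error only. With 1 library per genotype no test was made. The ratio code was tested on simulated data. Past 2-fold means a CPM ratio of at least 2 or at most 1/2, for genes with at least 50 UMIs. Medians of log2 ratios had 0.5 CPM added. Doublets were called with Scrublet (scanpy 1.11.5, expected rate 1%), which marked 3 WT and 6 CKO barcodes. These stayed in unless stated. Of the gene IDs, 32739 of 33456 are in GENCODE M21 (GRCm38), which gave positions.

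Named genes were the markers, globins and Smarcc1, the 10 highest and 10 lowest ratios among genes with at least 100 UMIs seen in at least 10% of the members of the higher library (ribosomal, mitochondrial, predicted and sex-linked genes left out), and from each list its 4 most abundant genes and those past 2-fold. Tfrc, Ddit3, and the progenitor and platelet genes given for single cells or neighbouring sets were named from the lists after their values were seen. The planned ratios between Car1-positive and Car1-negative members, and the genes named from them, were not made, because there were fewer than 20 Car1-positive cells. Some genes that the rule names are not reported here. The members and lists were chosen with earlier results of these data known.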

Additional observations from a re-analysis of the deposited data

How the results depend on the processing

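Counts of genes past 2-fold followed the UMI minimum: 972 higher and 268 lower with at least 20 UMIs, 194 and 48 with at least 100. Genes higher in CKO numbered 637 with the mean of each cell's CPM, 238 without members over the other-lineage limit, 244 with 10 to 20% globin only, 246 when doublet calls were left out of these too (added after seeing the data), and 68 with Y-linked members only (5 cells in each library, 942 genes). With doublet calls alone left out, which removed 1 WT member, 505 of 4121 genes were higher and 93 lower. The median log2 ratio was then 0.11. In all members 407 genes were higher and 116 lower, with a median of 0.02. With all globin genes in the share, members were 0.762% of WT and 4.37% of CKO barcodes. The Car1-positive share of CKO members was 17.5 to 31.3% over 4 alternatives and 0 in WT in each. The log2 ratio of Jun reversed without the WT doublet call (0.98). With Y-linked members only, the log2 ratio of Top2a (-0.00503) and the median log2 ratio, carbonic anhydrases (-0.689), reversed. Of 1439 log2 ratios of single genes under alternatives 2 reversed and 190 left their counting interval. No WT member lay in 5 to 10% globin, so that alternative gave no ratio, and the Car1 split was not run. No paired analysis was possible because each genotype has 1 library. The number of WT members, 16 cells, limits every ratio.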
